A study of Mus musculus with 32 samples.

Results

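HNF4A binding was described here at 10 genes that carry sugars, peptides and amino acids across the enterocyte: *Slc5a1*, *Slc2a2*, *Slc2a5*, *Slc15a1*, *Slc6a19*, *Slc7a9*, *Slc3a1*, *Slc7a7*, *Slc3a2* and *Slc1a1*. Overlapping peaks (1 bp or more in common) of 8 HNF4A ChIP-seq libraries were joined into merged sites, and those within each gene body or 20 kb either side were kept. This gave 111 of the 45552 merged sites of the series. A site counted as called by each library with a peak inside it. All mice were male C57BL/6J, 10 to 12 weeks old, and received a high-fat meal (HFM) of egg yolk emulsion by gavage, with the jejunum taken 2 hours later. The 4 GF+HFM mice were germ free, and the 4 CV+HFM mice were ex-germ-free mice conventionalized for 14 days. Each library came from 1 mouse. The intestinal epithelial cells (IECs) were not sorted, and the preparations held most of the villus epithelium with some crypts and some villus mesenchyme.

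HNF4A is a nuclear receptor that binds DNA as a dimer and is abundant in enterocytes, hepatocytes and kidney tubule cells. In the small intestine it occupies enhancers and promoters of genes for nutrient absorption, often near sites for GATA and CDX2 factors. Sugar and amino acid uptake takes place in 2 steps, with sodium- or proton-coupled carriers at the brush border and facilitated carriers or exchangers at the basolateral membrane. Several amino acid carriers are heterodimers of a light chain from the SLC7 family, which forms the pore, and a heavy chain from the SLC3 family, which brings it to the membrane.

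The 4 GF+HFM lists held 31061 to 36846 peaks and the 4 CV+HFM lists 29345, 9206, 21033 and 4533 in replicates 1 to 4, so CV+HFM replicates 2 and 4 stood apart and replicate 1 was nearly as long as the GF+HFM lists. Median peak width was 298 to 464 bp in GF+HFM and 318, 186, 274 and 103 bp in CV+HFM replicates 1 to 4. The lists give positions alone, with no strength, count or depth. The width percentile of a peak within its own list (low for narrow peaks, high for wide ones) therefore took the place of strength. Since the lists differ in length, percentiles of different libraries are taken over unlike sets of peaks and are not on a common scale. Peaks of equal width share the middle of their ranks, so the narrowest of a list can stand above 0. Of the enterocyte markers *Vil1*, *Alpi*, *Fabp2*, *Lct*, *Sis* and *Anpep*, 5 of 6 had a peak in all 8 libraries, and *Sis* had one in 4 GF+HFM libraries and 1 CV+HFM library. The enterocyte list covered 16621 to 28729 bp in GF+HFM and 1457 to 17040 bp in CV+HFM. The markers of other cells had 0 to 3 sites each, and none of them had a peak in all 8 libraries. No site was found at 3 of 4 hepatocyte markers (*Alb*, *Serpina1a* and *Ahsg*), at 1 of 3 leukocyte markers (*Ptprc*) and at 2 of 3 mesenchyme markers (*Col3a1* and *Pdgfra*). *Cyp2e1* of the hepatocyte list had 2 sites, with a peak in 4 GF+HFM and 3 CV+HFM libraries. *Cd3e* (2 sites, 3 and 1 libraries), *Cd79a* (3 sites, 4 and 2) and *Col1a1* (2 sites, 4 and 2) had some as well. All 4 markers of goblet, Paneth, enteroendocrine and stem cells (*Muc2*, *Lyz1*, *Chga* and *Lgr5*) had 1 to 3 sites. The hepatocyte list covered 203 to 590 bp in GF+HFM and 0 to 233 bp in CV+HFM, the leukocyte list 205 to 1088 and 0 to 424 bp, the mesenchyme list 539 to 735 and 0 to 308 bp, and the list of other epithelial cells 1706 to 3410 and 0 to 2019 bp. The part of these cells in the results was not tested. In these bulk preparations, fewer cells of a type and less binding per cell cannot be told apart, and neither can be told apart here from the length of the list.

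The sites called in the most libraries carry the comparison of the 10 genes, and a short stretch of reference sequence (NCBIM37, the assembly of mm9) is shown for 1 such site per gene. Each window was centred on the bases that the most libraries shared, except that the one at *Slc7a9* was moved by 26 bp to end before the annotated transcript, and is written on the plus strand of the chromosome, 5′ to 3′. Capitals mark the letters bound by GATA factors, AGATAA, and those of the homeobox factor CDX2, TTTATNG, where N is any base, on either strand. The marked letters do not overlap each other here.
Slc5a1 (chr5:33434157-33434257): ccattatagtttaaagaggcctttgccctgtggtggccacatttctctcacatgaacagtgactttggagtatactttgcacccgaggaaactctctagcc
Slc2a2 (chr3:28594481-28594581): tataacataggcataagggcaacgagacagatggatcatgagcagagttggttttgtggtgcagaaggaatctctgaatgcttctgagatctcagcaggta
Slc2a5 (chr4:149488999-149489099): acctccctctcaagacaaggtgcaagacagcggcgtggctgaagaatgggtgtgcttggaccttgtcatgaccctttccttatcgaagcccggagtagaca
Slc15a1 (chr14:121870877-121870977): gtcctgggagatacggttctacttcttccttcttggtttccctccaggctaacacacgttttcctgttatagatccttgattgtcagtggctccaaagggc
Slc6a19 (chr13:73834118-73834218): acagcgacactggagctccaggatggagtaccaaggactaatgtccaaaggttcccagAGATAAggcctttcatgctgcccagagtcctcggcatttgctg
Slc7a9 (chr7:36233955-36234055): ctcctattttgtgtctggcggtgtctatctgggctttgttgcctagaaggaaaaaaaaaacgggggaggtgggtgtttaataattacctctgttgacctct
Slc3a1 (chr17:85427553-85427653): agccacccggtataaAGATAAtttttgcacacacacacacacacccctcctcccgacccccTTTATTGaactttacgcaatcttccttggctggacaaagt
Slc7a7 (chr14:55007427-55007527): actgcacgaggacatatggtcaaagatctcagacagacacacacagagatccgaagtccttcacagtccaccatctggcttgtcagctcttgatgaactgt
Slc3a2 (chr19:8789866-8789966): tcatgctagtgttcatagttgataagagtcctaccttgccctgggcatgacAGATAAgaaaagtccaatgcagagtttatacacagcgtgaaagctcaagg
Slc1a1 (chr19:28907185-28907285): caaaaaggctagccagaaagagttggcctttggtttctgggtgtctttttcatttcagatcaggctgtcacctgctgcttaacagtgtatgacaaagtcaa

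The GATA letters stood in 3 of these 10 windows, at *Slc6a19*, *Slc3a1* and *Slc3a2*, and in 9.21% of windows of the same length placed in the same way at all sites. The CDX2 letters stood in 1 window, at *Slc3a1*, and in 5.51% of all windows. The HNF4 letters CAAAGTCCA and CAAAGGTCA, searched on both strands, were in none of the 10 windows and in 8.73% of all windows. The 10 windows lie at sites called in 7 or 8 libraries, while all windows include sites called in fewer. In 200 bp windows at the centre of each merged site, the HNF4 letters were found at 8 of 111 sites (7.21%) against 9.16% of all sites, AGATAA at 24 sites (21.6%) against 15.8%, and TTTATNG at 18 sites (16.2%) against 10.6%. These shares are descriptions without a test, and a window without the letters shows only that the exact letters are not there.

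Of the 8 sites with HNF4 letters, 5 were called in at least 4 libraries. They are shown in 61 bp windows, chosen after the search, with the match in capitals (TGACCTTTG is CAAAGGTCA read on the minus strand).
Slc2a2 (chr3:28598719-28598779): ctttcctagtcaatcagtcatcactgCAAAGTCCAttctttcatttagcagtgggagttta
Slc6a19 (chr13:73839467-73839527): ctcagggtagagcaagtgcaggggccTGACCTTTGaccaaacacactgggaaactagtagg
Slc3a1 (chr17:85427622-85427682): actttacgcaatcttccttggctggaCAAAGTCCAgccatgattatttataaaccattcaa
Slc7a7 (chr14:54992571-54992631): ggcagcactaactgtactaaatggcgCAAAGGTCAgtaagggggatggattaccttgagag
Slc1a1 (chr19:29001627-29001687): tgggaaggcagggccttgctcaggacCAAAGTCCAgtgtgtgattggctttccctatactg

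The site at the start of *Slc3a1* therefore held the GATA, CDX2 and HNF4 letters, and it was the only one of the 16 member sites called in all 8 libraries with HNF4 letters in its central window. Among all sites called in 8 libraries, 13.6% held them. The *Slc6a19* window lies in the 1 member site that every GF+HFM library and no CV+HFM library called.

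The members carried many sites. The number per gene ran from 4 at *Slc7a9* to 17 at *Slc15a1*, with a median of 11.5 against 2.00 over 22380 protein-coding genes with the same window. Per 100 kb of window the median was 15.6 for the members and 2.20 for all genes. *Slc2a5* (23.1 per 100 kb) and *Slc6a19* (23.0) stood at the 99.4th percentile of all genes, and *Slc3a1* (6.59) and *Slc7a9* (7.02) at the 76.9th and 78.9th. By position relative to the main transcript, 58 of the 111 sites had their centre in an intron, 6 in an exon, 7 lay over a coding transcript's start, 20 lay upstream and 20 downstream. Since the windows hold whole gene bodies, the gene body share follows in part from the rule. Sites touching coding exons, outside 1 kb of a coding start, made up 12.6% of member sites (14) and 4.69% of all sites.

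**Figure D1:**
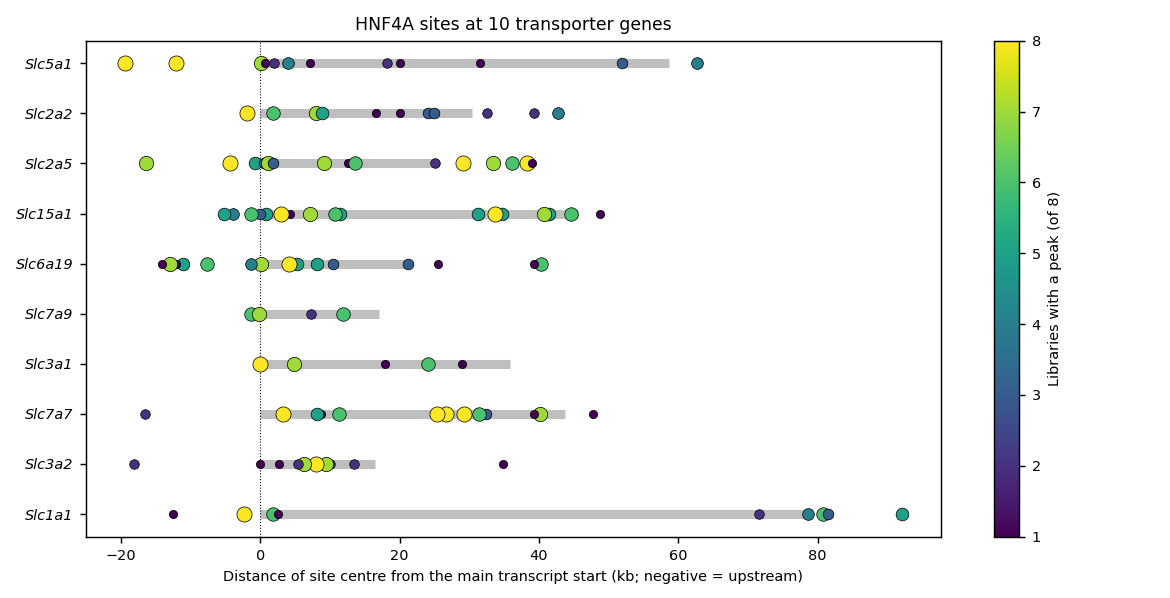
Each point is the centre of a merged HNF4A site at its distance in kb from the main transcript start of the gene (grey bar, extent of that transcript), with colour and size giving the libraries of 8 that called it. Sites called in all 8 libraries lie upstream of *Slc5a1*, *Slc2a2*, *Slc2a5* (and downstream of it) and *Slc1a1*, at the start of *Slc3a1*, and within *Slc15a1*, *Slc6a19*, *Slc7a7* and *Slc3a2*, while *Slc7a9* has none.

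Of the 111 sites, 16 (14.4%) were called in all 8 libraries against 7.56% of all sites, and 24 (21.6%) in 1 library against 21.6%. GF+HFM libraries alone called 37 sites (33.3%) against 35.6% of all sites, and 22 of the 37 were among the single-library sites. CV+HFM libraries alone called 2 sites (1.80%) against 2.67%, both in replicate 1. More GF+HFM than CV+HFM libraries called 87 sites (78.4%), equal numbers 21, and more CV+HFM libraries 3, against 86.5% of all sites with more GF+HFM libraries. The 24 single-library sites were narrow, with no width percentile above 50.1, and 17 of them were in GF+HFM replicates 3 and 4, the lists of the widest peaks (7 and 10). At 11 sites a library had more than 1 peak, and at each of those GF+HFM replicate 4 had 1 peak.

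Only 1 member site was called by all 4 GF+HFM libraries and by 0 of the CV+HFM libraries (0.901%), against 2.79% of all sites, and no site of the series was called in 0 and 4. The site lies before the start of the main *Slc6a19* transcript, inside the longer annotated gene, and has a Fisher's exact test p of 0.0286 (two-sided), the smallest that 4 against 4 libraries allow, and an adjusted p of 0.824 over all sites. No site of the series can pass the threshold under this test. Without CV+HFM replicate 1, the member sites called in every GF+HFM and no CV+HFM library were 9, and those of all sites 4871 in place of 1269. Member sites of this kind numbered 2 to 5 when GF+HFM replicate 1, 2, 3 or 4 or CV+HFM replicate 3 was left out. Those of all sites then rose as well, to between 1511 and 2493.

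Sites that all 4 GF+HFM libraries called numbered 59 at the members. CV+HFM replicate 1 called 54 of these (91.5%), replicate 2 called 30 (50.8%), replicate 3 called 50 (84.7%) and replicate 4 called 17 (28.8%). Among all 23049 such sites the shares were 91.6, 37.1, 78.0 and 17%. The members' share was thus higher in replicates 2, 3 and 4 and not in replicate 1, and no test was run on these shares. The members also held wider peaks. When the 23049 sites were divided into 4 quartiles of mean GF+HFM width percentile, 24 of the 59 (40.7%) fell in the widest quartile against 25% by construction. Within that quartile the CV+HFM libraries called 85.4% ± 18.2 of member sites and 79.2% ± 25.8 of all sites (SD, n = 4 libraries). Replicates 1 and 3 called all 24 member sites, against 99.7% and 98.3% of all sites. Replicate 2 called 79.2% against 74.2%, and replicate 4 called 62.5% against 44.8%. In this widest quartile the member share was thus the higher in each library. Both shares come from the same libraries, so the SD between libraries is not the error of this gap, which was not tested. In the narrowest quartile the shares were 31.2% ± 31.5 and 32.2% ± 34.6. They were 50.0% ± 43.6 and 48.9% ± 42.4 in quartile 2, and 66.7% ± 41.4 and 63.4% ± 38.8 in quartile 3. In each of these narrower quartiles the member share was the higher in some CV+HFM libraries and the lower in others.

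**Figure D2:**
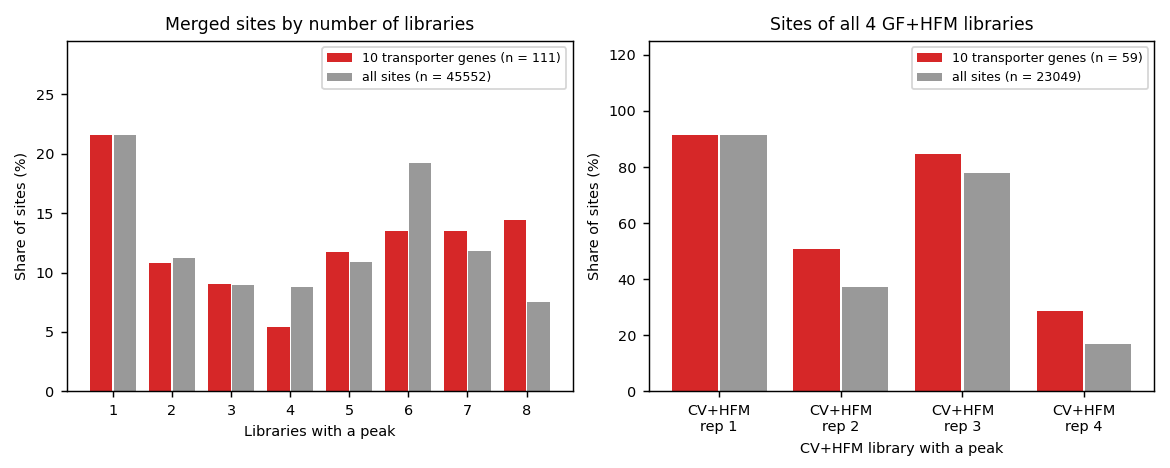
The left panel gives the share in percent of merged sites called in 1 to 8 libraries, for the 111 sites at the 10 genes (red) and all 45552 sites (grey). The right panel gives, for sites that 4 GF+HFM libraries called, the share that each CV+HFM library also called, which for the members was 91.5, 50.8, 84.7 and 28.8%.

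The sugar carriers divide between the 2 faces of the enterocyte. *Slc5a1* encodes SGLT1, the sodium-coupled glucose and galactose carrier of the brush border, and lies on the plus strand at chr5:33446868-33505521. It had 12 sites, of which 2 were called in all 8 libraries, both upstream and outside any gene. The wider of them, chr5:33433824-33435818, is centred 12047 bp upstream of the start. Its width percentile was 91.5, 70.9, 88.0 and 99.7 in GF+HFM replicates 1 to 4 and 79.1, 44.4, 81.1 and 70.6 in CV+HFM replicates 1 to 4. It was split into 2 peaks in the other 6 libraries but was 1 peak in GF+HFM replicate 4 and CV+HFM replicate 4.

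The site over the *Slc5a1* start, chr5:33446538-33447294, was called in 7 libraries. Its percentiles were 89.8, 80.4, 84.7 and 57.8 in GF+HFM and 59.5, 52.9 and 71.3 in CV+HFM replicates 1 to 3, with no peak in replicate 4. CV+HFM replicate 1 alone had a further peak just beyond it, in intron 1, at percentile 47.0. The 7 other intronic sites were called in 1 to 4 libraries, so that the recurrent sites of *Slc5a1* were at its start and upstream.

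*Slc2a2* encodes GLUT2, the facilitated carrier through which glucose and fructose leave across the basolateral membrane (chr3:28596825-28627278, plus strand). Among its 11 sites, 1 was called in all 8 libraries, chr3:28593998-28595772, centred 1940 bp upstream of the start. Its peaks were among the widest of most lists, at percentiles of 99.5, 99.9, 99.5 and 98.6 in GF+HFM and 99.5, 86.4 and 99.8 in CV+HFM replicates 1 to 3. In CV+HFM replicate 4 its peak was 52 bp wide, at percentile 5.01. No site lay over the main start. The HNF4 letters CAAAGTCCA stood in the intron 1 site chr3:28598415-28599002, which 4 GF+HFM libraries and CV+HFM replicates 1 and 3 called, at percentiles of 45.1 to 67.5. A further site, in intron 8 and 220 bp from the start of a shorter *Slc2a2* transcript, was called in GF+HFM replicates 3 and 4 (57.4 and 20.9) and CV+HFM replicate 1 (51.4).

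*Slc2a5* encodes GLUT5, the fructose carrier of the brush border (chr4:149493392-149518278, plus strand). It had 15 sites, 3 of them called in all 8 libraries. The upstream site chr4:149488594-149489445, centred 4373 bp before the start and inside the gene model *Gm13093*, had percentiles of 96.0, 97.9, 90.9 and 84.3 in GF+HFM and 93.4, 28.5, 94.6 and 51.2 in CV+HFM. The other two sites called in 8 libraries, and 3 further sites downstream, overlap *Slc2a7*, which encodes the related carrier GLUT7 and lies next to *Slc2a5*. Nearness to either gene does not tell which of them a site serves.

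Near the *Slc2a5* starts the calls were fewer. The site chr4:149492372-149493018, 374 bp before the first start, was called in 4 GF+HFM libraries at percentiles of 34.8, 7.76, 11.1 and 73.7 and in CV+HFM replicate 1 at 43.9. The site over exon 2 (chr4:149493765-149494166) was called in GF+HFM replicates 1 to 3 alone, at 64.1, 19.3 and 49.1. The next one, in intron 2 and touching exon 3, was called at 29.4, 44.1, 74.1 and 66.1 in GF+HFM and at 46.7, 30.8 and 35.4 in CV+HFM replicates 1 to 3. The site in intron 5 over a further transcript start (chr4:149501916-149503221) was called in the same 7 libraries, at 69.6, 52.5, 63.2 and 97.5 in GF+HFM and at 62.3, 45.6 and 64.7 in CV+HFM. Each of the 3 sugar carrier genes thus had a site called in all 8 libraries upstream of its start, and *Slc2a5* had such sites downstream as well.

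*Slc15a1* encodes PEPT1, the proton-coupled carrier of di- and tripeptides in the brush border (chr14:121858841-121904475, minus strand, 23 exons). It had 17 sites, the most of the 10 genes, and 197 protein-coding genes had at least as many. Of these, 12 were called in 4 GF+HFM libraries and 2 in all 8. The site chr14:121870060-121871454 touches exon 18 and has its centre in intron 17, which is 33718 bp into the gene. Its percentiles were 93.9, 94.7, 91.3 and 98.1 in GF+HFM and 96.6, 96.0, 89.7 and 81.3 in CV+HFM, so all 8 libraries gave it a wide peak. The second, chr14:121900987-121902084 in intron 1, had 92.8 to 96.6 in GF+HFM and 96.8, 32.0, 91.5 and 76.4 in CV+HFM.

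The start of *Slc15a1* itself was called in 3 libraries. These were GF+HFM replicates 1, 2 and 3, at percentiles of 62.3, 47.1 and 7.88 (chr14:121904322-121904692). On either side of it, the intron 1 site 595 bp away was called in GF+HFM at 70.4, 43.4, 9.45 and 40.4 and in CV+HFM replicate 3 at 8.29. The upstream site 989 bp away was called in GF+HFM at 84.2, 70.5, 83.3 and 47.5 and in CV+HFM replicates 1 and 3 at 23.4 and 48.8. A wider intron 1 site, chr14:121896747-121897847, centred 7178 bp into the gene, was called in all but CV+HFM replicate 4, at 87.9 to 98.4. The *Slc15a1* sites called in 7 or 8 libraries were thus centred in introns and not over the start.

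*Slc6a19* encodes B0AT1, the sodium-coupled carrier of neutral amino acids in the brush border (chr13:73817193-73842313, minus strand). It had 15 sites, 9 called in 4 GF+HFM libraries. The 1 site called in all 8, chr13:73833578-73834608 in intron 1, had percentiles of 91.8, 82.1, 93.3 and 93.6 in GF+HFM and 94.6, 79.4, 95.5 and 48.3 in CV+HFM. The site over the coding start, chr13:73837812-73838414, was called in 7 libraries, at 70.4, 69.1, 77.7 and 51.6 in GF+HFM and at 42.9, 14.7 and 59.7 in CV+HFM replicates 1 to 3. A site over the start of another transcript, in intron 2 (chr13:73829806-73830246), was called in 4 GF+HFM libraries, at 25.4, 22.3, 49.9 and 20.9, and CV+HFM replicate 3, at 29.0.

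The site that 4 GF+HFM libraries and 0 CV+HFM libraries called, chr13:73839243-73839722, is centred 1254 bp before the start of the main transcript and lies within the annotated extent of *Slc6a19* and inside the gene model *5430425J12Rik*. Its percentiles were 34.5, 15.8, 62.5 and 41.6 in GF+HFM replicates 1 to 4, so its peaks were not among the widest, and it holds the HNF4 letters CAAAGGTCA on the minus strand from 73839493 to 73839501. Of 4 sites centred 11065 to 14166 bp upstream, 7 libraries called chr13:73850535-73851793, at 81.7 to 98.4. *Slc6a18*, a neighbouring carrier gene of the same family, lies downstream, and 1 single-library site of the *Slc6a19* window overlaps it.

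*Slc7a9* and *Slc3a1* encode b0,+AT and rBAT, the light and heavy chains of the brush border exchanger for cystine and dibasic amino acids. They had few sites and both had their most recurrent one at the start. *Slc7a9* (chr7:36234056-36251055, plus strand) had 4 sites and none in all 8 libraries. The site over its start, chr7:36233299-36234368, was called in 7 libraries, with percentiles of 96.2, 91.9, 96.6 and 93.8 in GF+HFM and 95.0, 28.5 and 87.9 in CV+HFM replicates 1 to 3. CV+HFM replicate 4 had no peak anywhere in the *Slc7a9* window. *Slc3a1* (chr17:85427687-85463583, plus strand) had 5 sites. The site over its start, chr17:85427185-85427990, was called in all 8 libraries, with percentiles of 83.9, 87.0, 90.9 and 70.3 in GF+HFM and 75.3, 17.4, 84.8 and 70.6 in CV+HFM. Its HNF4 letters run from 85427648 to 85427656, just before the annotated start. The widest *Slc3a1* peaks in GF+HFM, at 93.5 to 96.0, were in intron 7 (chr17:85451212-85452242), a site that CV+HFM replicates 1 and 3 called as well, at 91.7 and 53.0.

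*Slc7a7* and *Slc3a2* encode y+LAT1 and 4F2hc, the light and heavy chains of the basolateral exchanger that passes cationic amino acids to the blood. *Slc7a7* (chr14:54989128-55032856, minus strand) had 13 sites and 4 in all 8 libraries, the most of the 10 genes, all in introns 1 and 2 of its main transcript. The site chr14:55007111-55007995 in intron 2 had percentiles of 93.8, 92.7, 92.7 and 82.1 in GF+HFM and 87.6, 96.9, 91.9 and 15.0 in CV+HFM. The site in intron 1, 485 bp before a second coding start (chr14:55028782-55030400), had 91.2, 73.5, 92.1 and 99.0 in GF+HFM and 70.6, 50.7, 69.2 and 59.6 in CV+HFM. A site touching exon 8 (chr14:54992218-54993114) was called in 7 libraries at 81.4 to 93.8 and holds the letters CAAAGGTCA. No *Slc7a7* site lay over a start.

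*Slc3a2* (chr19:8781372-8797859, minus strand) had 10 sites. The 1 site called in all 8 libraries, chr19:8789234-8790360, lies in intron 1 of the main transcript, 847 bp before a second coding start, with percentiles of 95.3, 87.6, 92.1 and 94.5 in GF+HFM and 71.6, 91.3, 80.2 and 84.4 in CV+HFM. In CV+HFM replicates 2 and 4, the short lists, it was thus still among the wider peaks. The site over that second start (chr19:8788145-8788651) was called in 7 libraries at 59.0, 49.2, 49.1 and 52.1 in GF+HFM and at 23.4, 21.5 and 19.9 in CV+HFM replicates 1 to 3. The first start was called in GF+HFM replicate 4 alone, by a peak at percentile 1.22 that also overlaps *Snhg1*. A site touching exon 2 was called in GF+HFM replicate 1 (20.1) and CV+HFM replicate 1 (36.4).

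*Slc1a1* encodes EAAT3, a sodium-coupled carrier of glutamate, aspartate and cysteine (chr19:28909539-28988450, plus strand). It had 9 sites, and no site within 1 kb of a start. The 1 site called in all 8 libraries, chr19:28906814-28907542, is centred 2386 bp upstream, with percentiles of 89.2, 86.2, 81.4 and 80.1 in GF+HFM and 86.9, 3.04, 93.2 and 53.6 in CV+HFM. An intron 1 site was called in 6 libraries, at 16.1 to 44.9. The other sites of 4 or more libraries lay at the far end of the gene and beyond it, where the model *4430402I18Rik* overlaps them. One of these, chr19:29001405-29001893, holds the letters CAAAGTCCA and was called in 4 GF+HFM libraries (18.9 to 63.4) and CV+HFM replicate 1 (46.4).

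**Figure D3:**
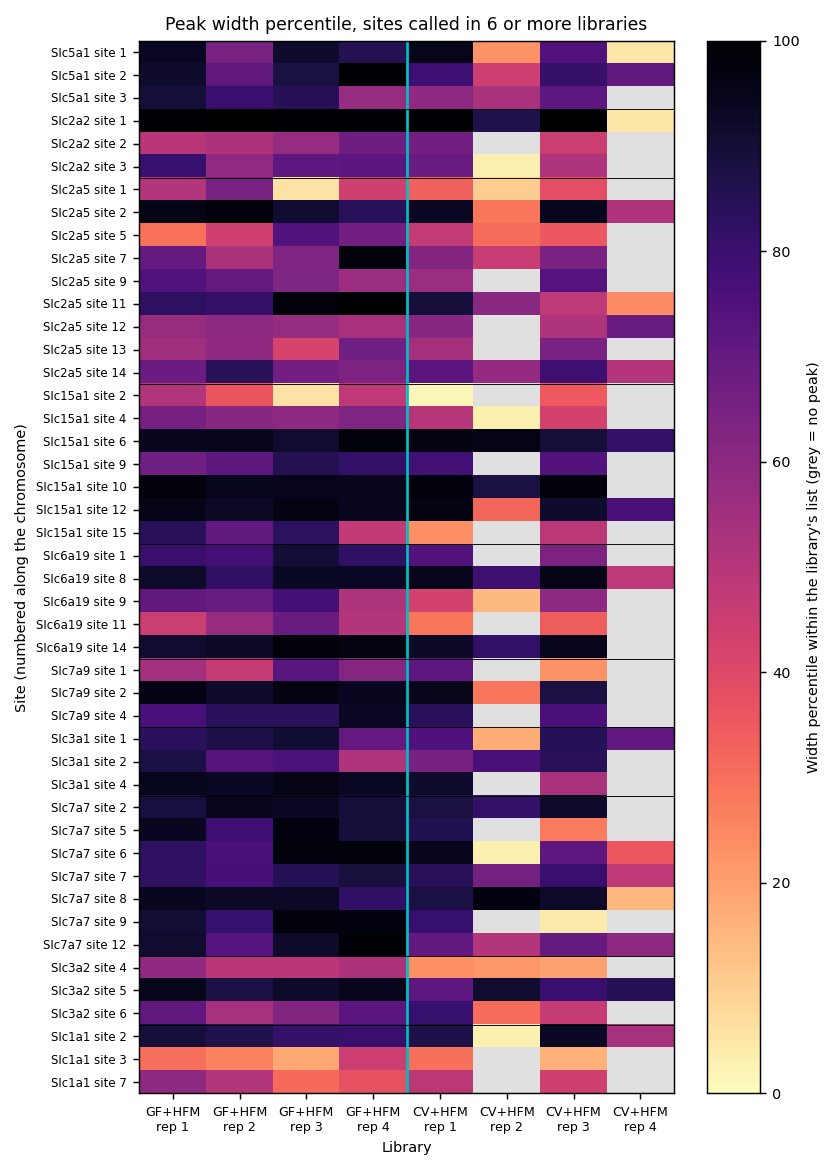
Rows are the 46 sites called in 6 or more libraries, numbered within each gene along the chromosome, columns are the 8 libraries, and colour gives the width percentile of the library's peak in its own list, with grey for no peak. Grey cells are in the CV+HFM columns, 29 of them in replicate 4 and 16 in replicate 2, while *Slc2a2* site 1 and *Slc15a1* sites 6 and 10 are dark across most columns.

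Whether width rank differed with colonization was tested with limma at the 3445 sites called in all 8 libraries, on normal scores of the rank within each library. Of the 16 member sites, 0 passed an adjusted p of 0.05, against 0.116% of sites called lower in CV+HFM (4 of 3445). Member sites had a lower mean rank in CV+HFM at 11 of 16 and all sites at 47.2%. At an unadjusted p under 0.05 there was 1 member site, against 11.6% of all sites. It is the site downstream of *Slc2a5* at chr4:149521730-149523392, which overlaps the start of *Slc2a7* (chr4:149523081-149542591). Its rank percentile among the 3445 sites averaged 64.0 ± 33.3 for GF+HFM against 28.6 ± 22.2 for CV+HFM (SD, n = 4), and limma gave an adjusted p of 0.378. GF+HFM replicates 3 and 4, with 1 peak each over the site, ranked at 90.1 and 95.3. GF+HFM replicates 1 and 2, with 2 peaks each, ranked at 34.2 and 36.3, within the CV+HFM range of 6.82 to 57.2. CV+HFM replicates 1 to 3 had 2 peaks there and replicate 4 had 1. Over the 16 sites the adjusted p ran from 0.378 to 0.984. Replicate spread was wide at most of them. At the *Slc2a2* upstream site, for one, the rank percentile averaged 95.9 ± 2.97 for GF+HFM against 67.7 ± 44.6 for CV+HFM (limma, adjusted p = 0.512), with 3.40 in CV+HFM replicate 4 and 71.5 to 99.1 in the other CV+HFM libraries. The *Slc15a1* intron 17 site had 73.6 ± 11.6 and 78.7 ± 11.0 (limma, adjusted p = 0.892).

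For each gene, the bases covered by peaks in the gene body and 20 kb either side were summed per library. The mean was higher in GF+HFM at all 10 genes, as it was at 98.5% of the 14653 protein-coding genes with a peak in the window. The CV+HFM mean came to between 30.3% (*Slc6a19*) and 41.1% (*Slc3a1*) of the GF+HFM mean, with a median of 35.5% against 31.7% over all genes. The groups did not overlap, with GF+HFM higher, at 6 of the 10 genes against 35.7% of all genes tested. For those 6 the exact permutation p was 0.0286 (two-sided, 4 against 4 libraries, the smallest that 70 relabellings allow) and the adjusted p 0.0801, so no gene of the series passed 0.05 after adjustment. The 35.7% was not matched for the number of sites per gene. That number had a median of 11.5 at the members and 2.00 over all protein-coding genes.

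The 6 genes were *Slc2a5*, *Slc15a1*, *Slc6a19*, *Slc7a9*, *Slc3a1* and *Slc7a7*. *Slc15a1* was covered over 6664, 5376, 7383 and 9370 bp in GF+HFM replicates 1 to 4 and 4701, 942, 3448 and 394 bp in CV+HFM. *Slc6a19* was covered over 4440, 4017, 7372 and 6836 bp and over 3421, 649, 2700 and 100 bp. In both, CV+HFM replicate 1 was closest to the GF+HFM libraries and replicate 4 lowest. *Slc2a5* had 5434, 5016, 6214 and 8542 bp against 4921, 1189, 3466 and 427 bp, where the lowest GF+HFM and the highest CV+HFM library nearly met. *Slc7a7* had 5554, 4628, 8053 and 8366 bp against 4413, 1362, 3475 and 360 bp. The subunit genes *Slc7a9* and *Slc3a1* had shorter coverage. *Slc7a9* had 2108, 1768, 2670 and 2604 bp against 1619, 149, 1216 and 0 bp. *Slc3a1* had 2196, 1525, 2394 and 2110 bp against 1438, 378, 1404 and 158 bp.

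At the other 4 genes the groups overlapped, and in each CV+HFM replicate 1 exceeded GF+HFM replicate 2. *Slc5a1* had 2541, 1943, 4421 and 5471 bp in GF+HFM and 2579, 641, 1486 and 210 bp in CV+HFM (exact permutation p = 0.0857), so that CV+HFM replicate 1 exceeded GF+HFM replicate 1 as well. *Slc2a2* had 3533, 2081, 4739 and 4444 bp against 3003, 578, 1643 and 52 bp (exact permutation p = 0.0571). At *Slc2a2*, *Slc3a2* and *Slc1a1* it exceeded GF+HFM replicate 2 alone. *Slc3a2* had 2216, 1289, 2282 and 2971 bp against 1573, 610, 860 and 232 bp, and *Slc1a1* 2127, 1354, 2421 and 2927 bp against 1913, 113, 987 and 110 bp (exact permutation p = 0.0571 for both). Without CV+HFM replicate 1 the groups did not overlap at any of the 10 genes, nor at 73.8% of all genes. Without GF+HFM replicate 2 they did not overlap at 9 of the 10 genes and at 61.5% of all genes. In the peak names of 2 GF+HFM libraries and of 3 from CV+HFM, the animal identifier ends with the letter A, with no meaning given for it. All 10 genes had a lower mean in CV+HFM among libraries with the letter. Among those without it, all 10 were lower in CV+HFM as well. There CV+HFM had replicate 4 alone, the shortest list (4533 peaks), against GF+HFM replicates 3 and 4. Relabelling within these sets gave an exact permutation p of 0.0667 to 0.200, where 0.0667 is the smallest that 30 relabellings allow.

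Covered length follows the length of a list, so the share of each list's covered bases that fell at a gene was compared as well. In this measure, in bp per Mb covered, the groups overlapped at all 10 genes. Of all genes, 6.27% did not overlap with GF+HFM higher and 3.39% with CV+HFM higher. The mean share was higher in GF+HFM at 4 members, *Slc2a2*, *Slc6a19*, *Slc7a9* and *Slc1a1*, and at 68.2% of all genes. *Slc2a5* had 431 ± 44.4 bp per Mb in GF+HFM against 578 ± 99.9 in CV+HFM (SD, n = 4; exact permutation p = 0.0857, adjusted p = 0.411), the lowest p of the 10 genes. *Slc3a1* had 142 ± 19.7 and 201 ± 49.4 (exact permutation p = 0.114), and *Slc7a7* 450.5 ± 39.8 and 562 ± 128 (exact permutation p = 0.143). All of *Slc2a5*, *Slc3a1* and *Slc7a7* had the higher mean in CV+HFM, and without CV+HFM replicate 1 their groups did not overlap. Without that library the groups did not overlap at 24.5% of all genes, counting both directions. With peaks of at least 300 bp the difference (CV+HFM minus GF+HFM) turned from 146 to -221 bp per Mb at *Slc2a5* and from 58.9 to -73.4 at *Slc3a1*, while at *Slc7a7* it went from 112 to 43.7.

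In the opposite direction, *Slc6a19* had 384 ± 55.9 bp per Mb in GF+HFM and 310.1 ± 107 in CV+HFM (exact permutation p = 0.314), and *Slc7a9* 157 ± 12.1 and 104 ± 82.8 (exact permutation p = 0.343). *Slc15a1* had nearly the same share in both, 492 ± 22.8 and 526 ± 79.9. In each of the 10 genes the SD was larger in CV+HFM than in GF+HFM. The adjusted p of the share ran from 0.411 to 1.00 over the members.

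**Figure D4:**
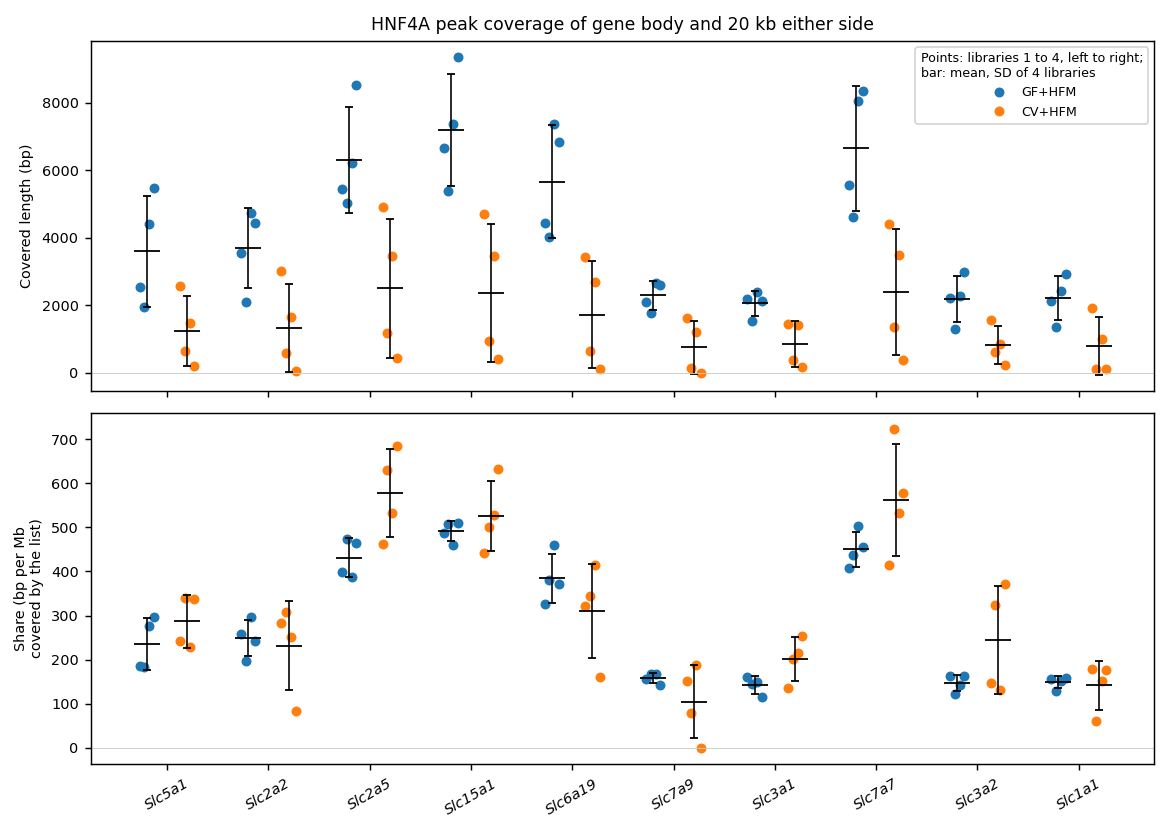
The upper panel gives bp covered by HNF4A peaks in the gene body and 20 kb either side, and the lower panel the same as bp per Mb covered by the library's list, for GF+HFM (blue) and CV+HFM (orange) with 1 point per library and the mean and SD of 4 libraries. In the upper panel the groups are apart at 6 genes, and in the lower panel they overlap at all 10.

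The members' part of each list was larger in the short lists. Per 10000 sites that a library called, 22.7 to 25.6 were member sites in GF+HFM, against 24.9, 34.3, 26.9 and 41.6 in CV+HFM replicates 1 to 4. The actual counts were 79, 72, 84 and 86 of the 111 in GF+HFM and 69, 30, 53 and 17 in CV+HFM.

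A list of 25 other genes of sugar and amino acid absorption, further carriers, their partner proteins, ion pumps and exchangers and enzymes of fructose use, was described in the same way. Of these, 23 had a site and *Slc15a2* and *Slc6a14* had none. The median was 9 sites per gene. The 203 sites, of which 17 were also sites of the members, included 24 called in all 8 libraries (11.8%) and 3 called in 4 and 0 (1.48%). The covered length did not overlap, with GF+HFM higher, at 10 of the 23 genes with a site, against 35.7% of all genes tested, again not matched for site number. None of the 23 passed the adjusted threshold. In share of covered length, the groups did not overlap at *Pdzk1*, with GF+HFM higher, and at *Khk*, with CV+HFM higher (exact permutation p = 0.0286 each, adjusted p = 0.296). *Pdzk1* encodes a scaffold protein of the brush border, and *Khk* ketohexokinase, which phosphorylates the fructose that GLUT5 carries in. *Khk* had 5 sites in all 8 libraries. *Pdzk1* had 5906, 4390, 6358 and 6768 bp in GF+HFM and 3823, 229, 2343 and 0 bp in CV+HFM, while *Khk* had 6683, 5607, 7562 and 9184 bp and 6018, 2158, 4385 and 1186 bp.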

How the data were processed

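The HNF4A ChIP-seq lists of 4 GF+HFM mice and 4 CV+HFM mice were used, grouped by their labels. Other samples of the series were not used here. Alignment by the authors was to mm9 (Bowtie2), and MACS2 2.1.1.20160309 found peaks in each mouse against input DNA, at a bandwidth of 300 bp. The deposited values are peak positions in bp, with no count, score or coverage, so the depth is unknown and peak width stood for strength, as the plan allowed. Sites were merged with Python 3.11.15 and numpy 2.4.6, and genes follow GENCODE M1. No site ended beyond a chromosome of NCBIM37, read with pysam 0.24.0.

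Calls were compared by Fisher's exact test and covered length by exact permutation tests (scipy 1.17.1). Width rank was compared by limma 3.58.1 (R 4.3.3; Benjamini-Hochberg, 0.05), adjusted over all sites or genes. On simulated data of 3445 sites, limma recovered 91% of 200 sites shifted by 3 SD, with 4.71% of calls false. This gives no rate of recovery for smaller shifts. Members and lists were chosen with earlier results of these data known. One gene of the list of other absorption genes is not reported here and enters none of its counts. All members were named, with full values for the site of most libraries, sites within 1 kb of a start and sites called in 4 and 0 libraries. Alternatives were each library left out, 50% of a site covered, gaps of 100 bp merged, peaks of at least 300 bp, the 4533 widest peaks per list, windows of 5 or 50 kb, peak numbers and the replicate number as a block; the letter in identifiers was added after the data were seen.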

Additional observations from a re-analysis of the deposited data

How the results depend on the processing

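Depth is unknown, so a library without a peak may have bound below its threshold, and CV+HFM replicates 2 and 4 had short lists. Leaving out 1 library gave 105 to 111 member sites, 1 to 9 called in every GF+HFM and no CV+HFM library (1271 to 4871 of all sites; 2493 when GF+HFM replicate 2 was left out, 1914 for CV+HFM replicate 3), 0 to 21 sites with a changed width rank in limma (5 when CV+HFM replicate 4 was left out, 14 for GF+HFM replicate 2, 21 for CV+HFM replicate 1 and 0 for each of the others), with 254 to 713 at an unadjusted p under 0.05 and none at the members. Members whose covered length did not overlap were 6 to 10 (9 without GF+HFM replicate 2), with 35.7 to 73.8% of all genes (61.5% without GF+HFM replicate 2), and by share 0 to 3, with 11 to 24.5% of all genes (14.9% for GF+HFM replicate 2, 15.6% for CV+HFM replicate 3) in place of 9.66%. A call that needed 50% of the site gave 5 member sites and 2226 of all sites in 4 and 0 libraries, and the widest peaks of each list gave 31 member sites, with 0 of them and 55 of all sites in 4 and 0. A window of 50 kb gave 3 such member sites, 4 members apart by covered length (40.6% of all genes) and 1 by share (10.2%). Peaks of at least 300 bp left 3 members apart by covered length (29.7% of all genes). The cause of these changes was not tested. Where a library was left out, the condition spanned fewer libraries.

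The mean share changed sign between conditions (CV+HFM minus GF+HFM, bp per Mb) with peaks of at least 300 bp at *Slc5a1* (-97.7), *Slc2a5* (-221), *Slc15a1* (-29.3) and *Slc3a1* (-73.4), with 5 kb at *Slc5a1* (-37.3), *Slc2a2* (6.22) and *Slc1a1* (14.4), with 50 kb at *Slc15a1* (-134), and with 1 library left out at *Slc1a1* (-19.2 to 20.6, positive without CV+HFM replicate 2), *Slc2a2* (-42.4 to 32.1, positive without CV+HFM replicate 4) and *Slc15a1* (-1.49 to 62.2, negative without CV+HFM replicate 4). Covered length changed sign at no member under any of these. The labels do not say whether the replicate numbers pair the mice. Correlations of same-numbered deviations were weak (0.0534, 0.0746, -0.0776 and 0.138), which cannot exclude a pairing. With the number as a block limma called 4 sites, none a member, and covered length had one sign in all 4 pairs at 9 members and 64.9% of all genes (exact sign flips, p = 0.125 to 0.250, where 0.125 is the smallest possible), and the share at 3 and 21.6%.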
